A study of Mus musculus with 12 samples.

Results

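Fatty acid oxidation and ketone body metabolism were examined through 37 member genes, chosen by name as enzymes of mitochondrial and peroxisomal fuel use. Each member matched 1 of the 47632 rows of the expression tables. The members cover fatty acid activation (4 genes), the carnitine shuttle (3), the acyl-CoA dehydrogenases (7), electron transfer to the respiratory chain (3), the hydratase, hydroxyacyl-CoA dehydrogenase and thiolase steps (5), auxiliary enzymes for unsaturated chains (3), the peroxisomal pathway (6), ketone body and acetoacetyl-CoA enzymes (4) and thioesterases (2).

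Expression was measured by RNA-seq of epithelial cells isolated from the colon of C57/BL6 mice. Controls, labelled WT, were Tfeb flox/flox animals, and animals labelled KO were Tfeb dIEC, in which Cre driven by the villin promoter deletes the floxed Tfeb alleles in the intestinal epithelium. Both genotypes carried the floxed alleles and were collected on Day 0, Day 4 and Day 11 of an experiment with 2.5% dextran sulfate sodium (DSS), a chemical that injures the colon epithelium, with Day 0 standing for untreated animals. The labels give 2.5% for every sample, Day 0 included, whereas the study's methods give a slightly lower concentration. Each of the 6 groups held 2 mice, aged 10 and 12 weeks on Day 0, 12 weeks on Day 4 and 10 weeks on Day 11. Whether the control animals carried Cre is not given in the sources used here. Each group was available as 1 pooled value per gene in FPKM, a count of read fragments scaled to transcript length and library size, so no spread between animals, interval or test could be computed, and every difference is a description of pooled values. The tables do not give the depth of sequencing.

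Epithelial cells of the colon draw much of their energy from butyrate, a short-chain fatty acid made by gut bacteria, and from longer fatty acids. A fatty acid is joined to coenzyme A, carried into the mitochondrion as a carnitine ester when its chain is long, and shortened in repeated rounds of dehydrogenation, hydration, dehydrogenation and thiolysis that release acetyl-CoA and pass electrons through the electron transfer flavoprotein. Acetyl-CoA can be turned into the ketone bodies acetoacetate and hydroxybutyrate, and the colon epithelium is known to express the enzymes of this branch.

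A pair of members lies head to head and one of that pair has a near-identical copy elsewhere in the genome, so their sequences are shown first. Hadha and Hadhb encode the alpha and beta subunits of the mitochondrial trifunctional protein, which performs the last steps of each round on long chains. Hadha runs on the minus strand of chromosome 5 and Hadhb on the plus strand. The 85 bases between their gene starts in the GENCODE M21 annotation (chr5:30155163-30155247) are shown on the plus strand. Their letters, cut from the RefSeq promoter window of Hadhb (GRCm38.p6), are 69.4% G or C and hold 9 CG pairs, in capitals.
Hadha to Hadhb: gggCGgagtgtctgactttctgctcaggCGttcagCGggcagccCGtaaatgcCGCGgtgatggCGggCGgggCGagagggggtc

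Gm13910, a processed pseudogene on the plus strand of chromosome 2 (GRCm38, chr2:108948806-108950233), aligned over its whole 1428 bases with the 2033-base Hadhb transcript Hadhb-201. The sequences were identical at 1425 positions and different at 3, an identity of 99.8%. The 60-base stretches below come from the coding part of exon 4 of Hadhb (chr5:30166694-30166753) and from the matching place in Gm13910 (chr2:108948947-108949006). They are the first such window within 1 coding exon that holds the largest number of differences found, which was 1, in capitals.
Hadhb: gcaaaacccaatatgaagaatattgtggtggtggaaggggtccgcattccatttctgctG
Gm13910: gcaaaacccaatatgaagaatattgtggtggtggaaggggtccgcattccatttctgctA

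The labels were checked first on Tfeb, the targeted gene. In Tfeb flox/flox animals its level on Day 0 was 0.901 FPKM and in Tfeb dIEC animals 0.185 FPKM, followed by 1.08 FPKM and listed at 0 on Day 4, and at 1.18 FPKM and listed at 0 on Day 11. All 9 epithelial markers had at least 1 FPKM in every group. The summed level of 14 immune rows was between 3.06 and 9.75 FPKM, with Cd68, Adgre1 and S100a9 listed at 0 in every group, and that of 10 stromal and vascular markers between 2.50 and 6.23 FPKM, with Col1a2, Lum and Pdgfra listed at 0 throughout. Crypt base and cycling markers (7) summed to between 5.21 and 25.5 FPKM, and small-intestinal enterocyte markers (6) to between 4.57 and 24.2 FPKM. A listed 0 can be a failed estimate.

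On Day 0, when animals were untreated, the genotypes differed little in the members. Among the 36 members with at least 1 FPKM in either genotype, 1 was at least 2-fold lower in Tfeb dIEC, against 16.1% of all 9993 genes with that level, and 2 were at least 2-fold higher, against 13.5%. Here and below, differences are on the log2(FPKM + 1) scale, Tfeb dIEC minus Tfeb flox/flox, and 2-fold means a difference of 1 on that scale, which understates the change of low genes. The median difference of the members was 0.25, beside 0.06 over all genes. The member on the lower side was Acad9, and those on the higher side were Acsm3 and Cpt1a.

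On Day 4, 18 of 35 members with at least 1 FPKM were at least 2-fold higher in Tfeb dIEC, 51.4% of them against 25.6% of the 9371 genes with that level. In the other direction 1 member, Etfb, was at least 2-fold lower, against 26.1% of all genes. The median difference was 1.03 for the members and 0.06 for all genes, and 29 of the 35 differences were positive, beside 51.3% of all genes. With a pseudocount of 5 FPKM in place of 1, which weighs low genes less, the median fell to 0.65 and 13 members were at least 2-fold higher, against 9.33% of all genes. Just past the 2-fold line were Hadhb (1.03) and Acad9 (1.04), and just short of it were Echs1 (0.94) and Decr1 (0.86).

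On Day 11 the counts were close to those of Day 4. Among 34 members with at least 1 FPKM, 19 were at least 2-fold higher, against 26.1% of all 9365 genes, and 2, Etfb and Crat, were at least 2-fold lower, against 25.7%. The 19 were the 18 of Day 4 and Echs1. The median difference was 1.22 for the members and 0.08 for all genes. With the trend over transcript length described below subtracted, the median was 0.67 and 11 members were at least 2-fold higher, against 20.3% of all genes. Days 4 and 11 also resembled each other in level: 28 of 33 members in Tfeb flox/flox and 24 of 34 in Tfeb dIEC differed by less than 1.1-fold between these days, 84.8% and 70.6%, beside 78.3% and 75.2% of all genes. Of the genes compared, 618 of 7629 in Tfeb flox/flox and 277 of 8038 in Tfeb dIEC had exactly the same FPKM on Days 4 and 11, against 0 of 9617 in either genotype between Days 0 and 4. The labels list different animals for Days 4 and 11 and each day has its own table, and the reason for the identical values could not be checked. Between Days 0 and 4, 3 of 36 members in Tfeb flox/flox and 8 of 36 in Tfeb dIEC differed by less than 1.1-fold, 8.33% and 22.2%, beside 8.79% and 14.3% of all genes. Day 11 is therefore reported beside Day 4 and is not read as a separate measurement.

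**Figure D1:**
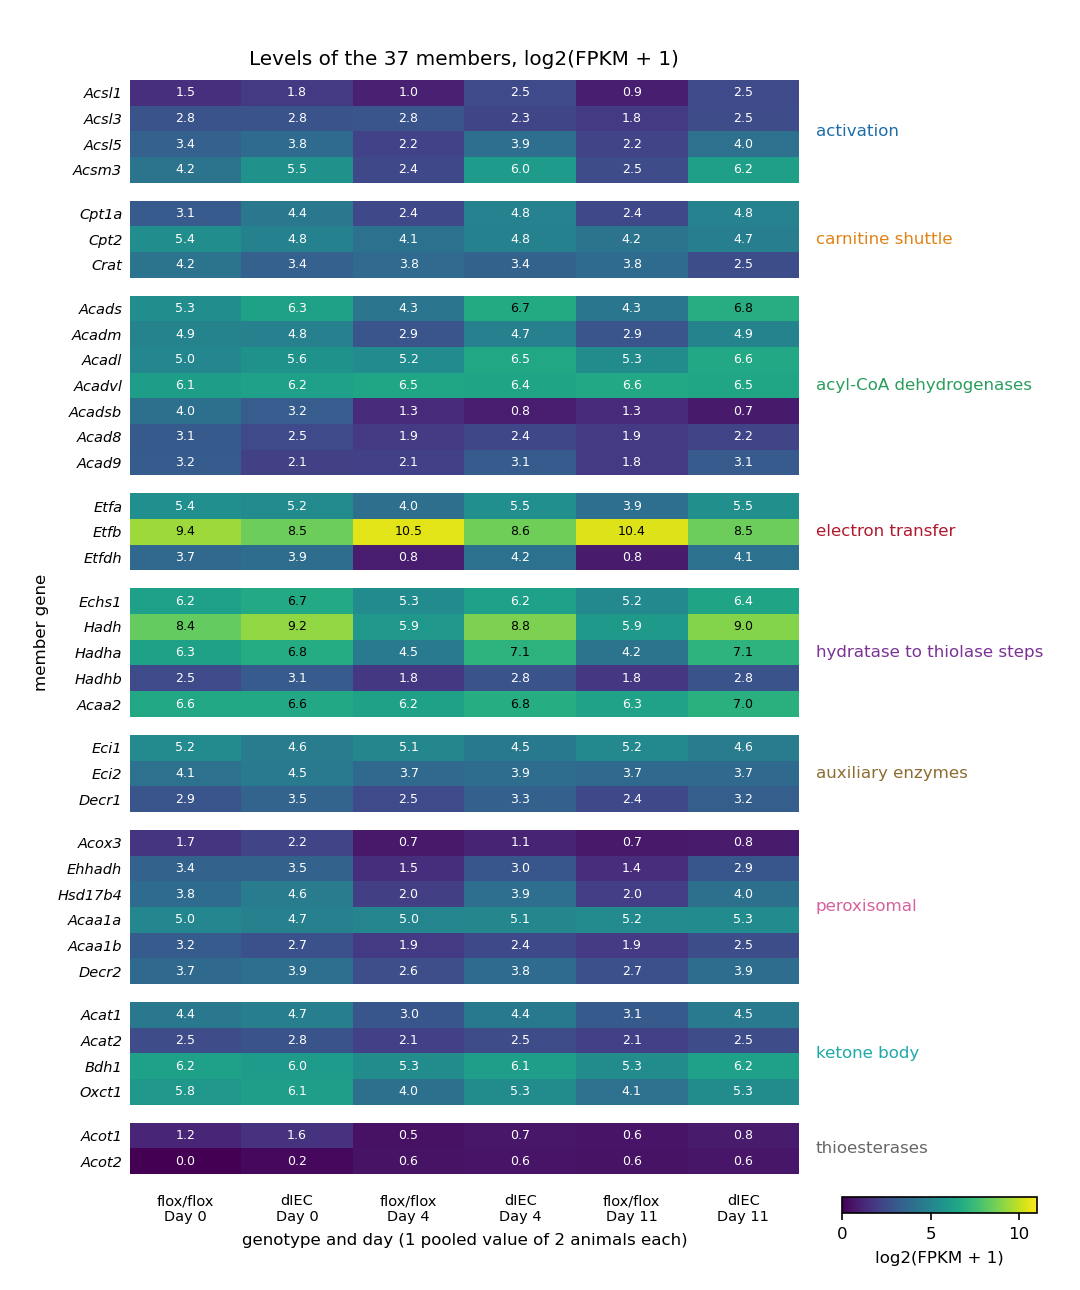
Level of each of the 37 members (rows, grouped by role) in the 6 groups (columns), as log2(FPKM + 1), printed in each cell and shown by colour from 0 to 11; each cell is 1 pooled value of 2 animals. Most rows are darkest in Tfeb flox/flox on Days 4 and 11, while Etfb, at 1459 FPKM in Tfeb flox/flox on Day 4, is brightest there.

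Etfb, the beta subunit of the electron transfer flavoprotein, led in Tfeb flox/flox on all 3 days, and Hadh, the mitochondrial hydroxyacyl-CoA dehydrogenase for shorter chains, led in Tfeb dIEC on all 3 days. The median member was at 15.8 FPKM in Tfeb flox/flox and 21.3 FPKM in Tfeb dIEC on Day 0, and at 6.17 FPKM and 16.9 FPKM on Day 4. The median gene with at least 1 FPKM lay between 4.58 and 4.76 FPKM in every group. FPKM is a level per transcript length, so levels are compared between genes on that scale.

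The activating enzymes join fatty acids to coenzyme A. Acsm3, a mitochondrial synthetase for medium-length chains, was at 17.2 FPKM in Tfeb flox/flox and 45.3 FPKM in Tfeb dIEC on Day 0, at 4.18 and 62.8 FPKM on Day 4, and at 4.75 and 70.9 FPKM on Day 11. It was higher in Tfeb dIEC on every day, by 1.35, 3.62 and 3.64 on the log2 scale, the largest difference of any member on Days 4 and 11, and its FPKM ratio on Day 4 was 15.0. Acsl5, a synthetase for long chains, was at 9.24 and 13.0 FPKM on Day 0, 3.50 and 14.3 FPKM on Day 4, and 3.57 and 15.5 FPKM on Day 11, in Tfeb flox/flox and Tfeb dIEC in turn. Its difference was 0.45, 1.77 and 1.86 on the 3 days, within 2-fold only on Day 0. Acsl1, another long-chain synthetase, had low levels of 1.80 and 2.57, 1.04 and 4.49, and 0.870 and 4.60 FPKM, and differed by 0.35, 1.43 and 1.58. Acsl3, the synthetase associated with lipid droplets, did not share this pattern. Acsl3 was at 6.02 and 6.08 FPKM on Day 0, 6.17 and 3.79 FPKM on Day 4, and 2.54 and 4.71 FPKM on Day 11, so its direction on Day 4 (-0.58) was opposite to that on Day 11 (0.69), with neither past 2-fold. With the length trend subtracted the values were -1.35 and -0.11, of the same sign and past 2-fold on Day 4.

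In the carnitine shuttle, the 3 members went different ways. Cpt1a, which makes long-chain acylcarnitines at the outer mitochondrial membrane and is the controlled step of entry, was at 7.59 FPKM in Tfeb flox/flox and 20.2 FPKM in Tfeb dIEC on Day 0, 4.21 and 27.6 FPKM on Day 4, and 4.21 and 27.8 FPKM on Day 11. Its differences were 1.30, 2.45 and 2.46, so with Acsm3 it was past 2-fold on every day. With the length trend subtracted, the Day 0 values were 0.89 for Cpt1a and 0.99 for Acsm3, both within 2-fold. Cpt2, which reverses the reaction inside the mitochondrion, was at 41.1 and 26.4 FPKM on Day 0 and 16.6 and 26.7 FPKM on Day 4, differences of -0.62 and 0.65 that had opposite signs and were both within 2-fold. Crat, the acetyl and short-chain carnitine transferase, was lower in Tfeb dIEC on every day, at 17 and 9.22 FPKM, 12.7 and 9.84 FPKM, and 12.8 and 4.84 FPKM. Its differences were -0.82, -0.34 and -1.24, and the Day 11 value was the only one past 2-fold. With the length trend subtracted, the differences of Crat were -1.21, -1 and -1.91, at least 2-fold lower on every day.

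Acyl-CoA dehydrogenases perform the first oxidation of each round, each on its own range of chains. Acads, for short chains such as butyryl-CoA, was at 39.7 FPKM in Tfeb flox/flox and 77.5 FPKM in Tfeb dIEC on Day 0, at 18.5 and 103 FPKM on Day 4, and at 18.7 and 113 FPKM on Day 11. The difference was 0.95, just short of 2-fold, on Day 0 and 2.41 and 2.53 later. Acadm, for medium chains, was at 29.2 and 26.2 FPKM, 6.5 and 25.5 FPKM, and 6.26 and 29.0 FPKM. Thus Acadm was close between genotypes on Day 0 (-0.16) and higher in Tfeb dIEC on Day 4 (1.82) and Day 11 (2.05).

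For longer chains the picture was uneven. Acadl, for long chains, was at 32.1 and 46.7 FPKM on Day 0, 37 and 91.7 FPKM on Day 4, and 39.0 and 95.8 FPKM on Day 11, with differences of 0.53, 1.29 and 1.27. It stood apart from Acads and Acadm in that its Tfeb flox/flox level was not lower on Day 4 than on Day 0. Acadvl, for very long chains, was between 67.5 and 94.3 FPKM in all 6 groups and differed by -0.08 on Day 4. Acad9, which is also an assembly factor of respiratory complex I, was at 8.01 and 3.43 FPKM on Day 0, 3.29 and 7.80 FPKM on Day 4, and 2.52 and 7.71 FPKM on Day 11. It was the only member past 2-fold in opposite directions, at -1.02 on Day 0 and 1.04 on Day 4 (1.31 on Day 11). Both lay close to the 2-fold line: with the length trend described below subtracted, Acad9 differed by 0.47 on Day 4 and 0.67 on Day 11, and with a pseudocount of 5 FPKM it was within 2-fold on every day.

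The members for branched chains, which act in amino acid breakdown, were lower on Day 4 than on Day 0 in Tfeb flox/flox. Acadsb, for short branched chains, was at 15.3 FPKM in Tfeb flox/flox and 8.08 FPKM in Tfeb dIEC on Day 0 and at 1.46 and 0.763 FPKM on Day 4. It was the only member at least 2-fold lower on Day 4 than on Day 0 in both genotypes. Acad8, an isobutyryl-CoA dehydrogenase of valine breakdown, was at 7.44 and 4.53 FPKM on Day 0 and 2.74 and 4.12 FPKM on Day 4, within 2-fold between genotypes on each day.

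The electron transfer members differed between genotypes in opposite directions. Etfdh, the oxidoreductase that passes electrons on to ubiquinone, was at 11.9 FPKM in Tfeb flox/flox and 13.7 FPKM in Tfeb dIEC on Day 0, at 0.792 and 16.9 FPKM on Day 4, and at 0.710 and 16.3 FPKM on Day 11. The difference went from 0.18 on Day 0 to 3.32 on Day 4 and 3.34 on Day 11, and the FPKM ratio on Day 4 was 21.3, although the denominator was below 1 FPKM. Etfa, the alpha subunit of the flavoprotein, was at 42.7 and 36.2 FPKM, 14.5 and 42.9 FPKM, and 14.4 and 44.0 FPKM, with differences of -0.23, 1.50 and 1.55. Its partner Etfb went the other way, at 665 and 364 FPKM on Day 0, 1459 and 380 FPKM on Day 4, and 1378 and 367 FPKM on Day 11. Etfb was lower in Tfeb dIEC on all 3 days, with differences of -0.87, -1.94 and -1.91, and its Tfeb dIEC level was nearly the same on the 3 days. Etfb had the shortest transcript of the members, at 893 nt, and 55.2% of its 50-base sequences occurred in no other annotated gene, while 43.8% also occurred in Gm45233, which has no row in the tables.

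Because Etfb alone made up much of the summed FPKM, the sum over members depended on it. With Etfb, the members summed to 1886 FPKM in Tfeb flox/flox and 1966 FPKM in Tfeb dIEC on Day 0. The sums were 2037 and 1938 FPKM on Day 4, and 1964 and 2037 FPKM on Day 11, ratios of 1.04, 0.951 and 1.04. Without Etfb, the other 36 summed to 1221 and 1602 FPKM on Day 0 and 578 and 1557 FPKM on Day 4. On Day 11 they summed to 586 and 1669 FPKM. The ratio of the sums without Etfb was 1.31, 2.69 and 2.85. Etfb was left out after its values were seen, and Hadh alone was at 58.1 and 453 FPKM on Day 4.

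**Figure D2:**
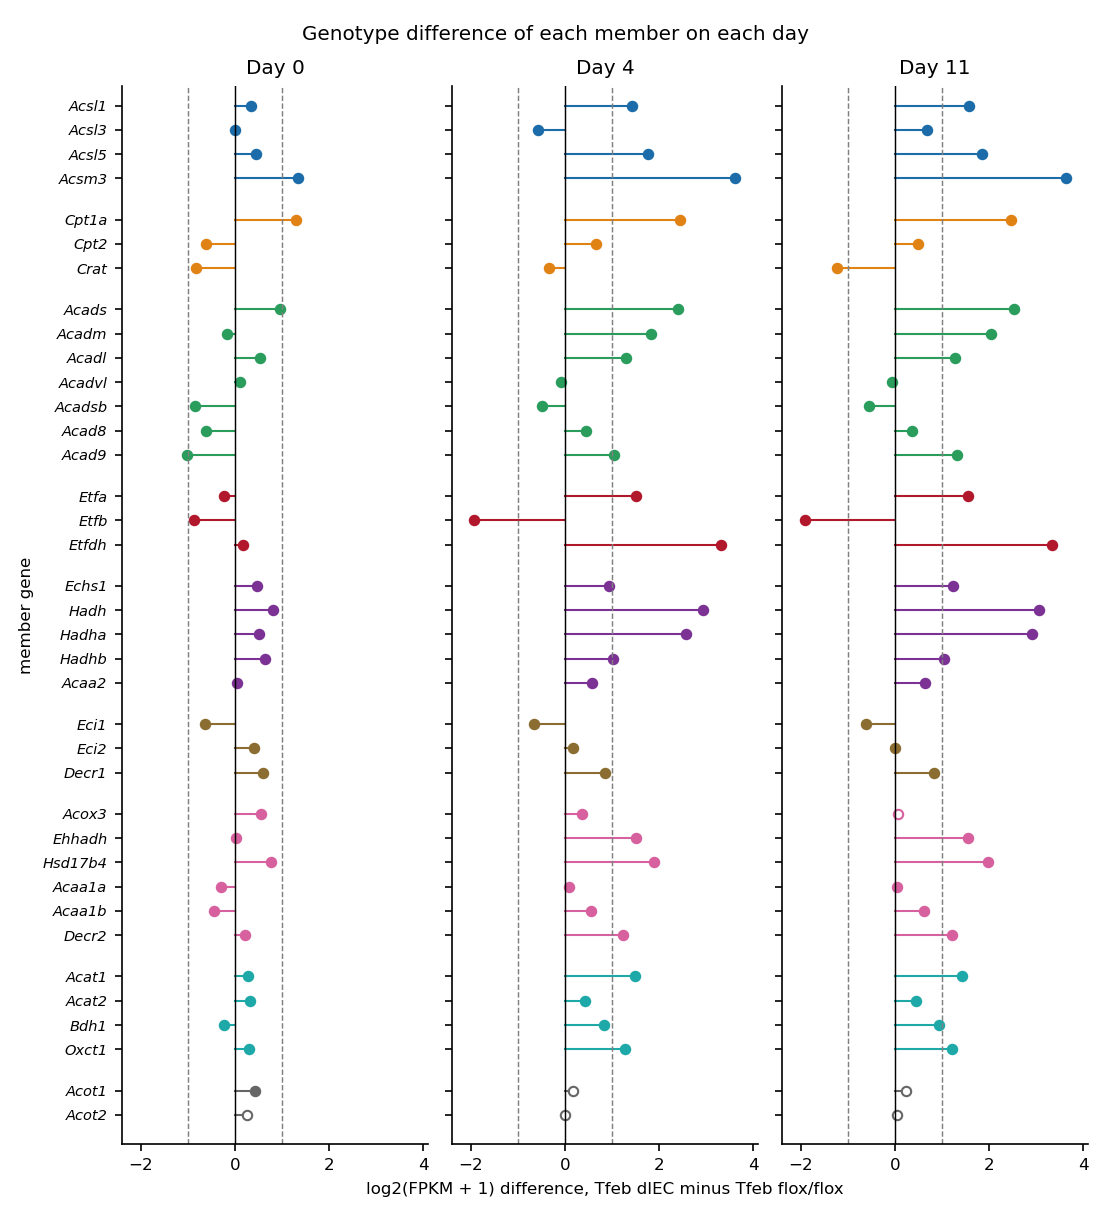
Difference between genotypes for each member on Day 0, Day 4 and Day 11, as log2(FPKM + 1) in Tfeb dIEC minus Tfeb flox/flox (x axis), with members on the y axis coloured by role. Dashed lines mark 2-fold, and open circles mark members under 1 FPKM in both genotypes on that day. On Day 4, 18 filled circles lie past the right line and 1, Etfb, past the left line.

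Among the later steps of each round, Hadh and Hadha had the largest differences on Days 4 and 11. Hadh was at 331 FPKM in Tfeb flox/flox and 577 FPKM in Tfeb dIEC on Day 0, at 58.1 and 453 FPKM on Day 4, and at 59.7 and 503 FPKM on Day 11. Its difference was 0.80 on Day 0, within 2-fold, and 2.94 and 3.06 later, with an FPKM ratio of 7.79 on Day 4. Hadha was at 75.3 and 109 FPKM, 21.8 and 135 FPKM, and 17.4 and 138 FPKM, differences of 0.52, 2.58 and 2.91. Echs1, the hydratase for shorter chains, was at 72.2 and 99.9 FPKM, 37.7 and 73.4 FPKM, and 34.8 and 83.7 FPKM, with differences of 0.46, 0.94 and 1.24. Acaa2, the mitochondrial thiolase, was between 75.1 and 124 FPKM in all groups and differed by 0.57 on Day 4, within 2-fold. All 5 members of this group had positive differences on each of the 3 days. Over all genes, 52.7%, 51.3% and 51.7% of differences were positive on Days 0, 4 and 11. Of the 5, Acaa2 differed by only 0.05 on Day 0, and the Hadhb values are uncertain, as described next.

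Hadhb was listed far below its partner Hadha. Hadhb was at 4.52 and 7.62 FPKM on Day 0, 2.43 and 6 FPKM on Day 4, and 2.39 and 6.03 FPKM on Day 11, and its differences of 0.64, 1.03 and 1.05 were smaller than those of Hadha on Days 4 and 11. Gm13910, the pseudogene shown above and chosen here after its values were seen, was at 45.2 and 69.2 FPKM, 7.31 and 88.3 FPKM, and 7.24 and 90 FPKM. Its differences of 0.60, 3.43 and 3.46 were past 2-fold on the same days as those of Hadha. With 3 differing bases in 1428, reads from the matching part of Hadhb and from Gm13910 can seldom be told apart, and 89.1% of the 50-base sequences of Gm13910 also occur in Hadhb. The level and the genotype difference listed for Hadhb are therefore uncertain.

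**Figure D3:**
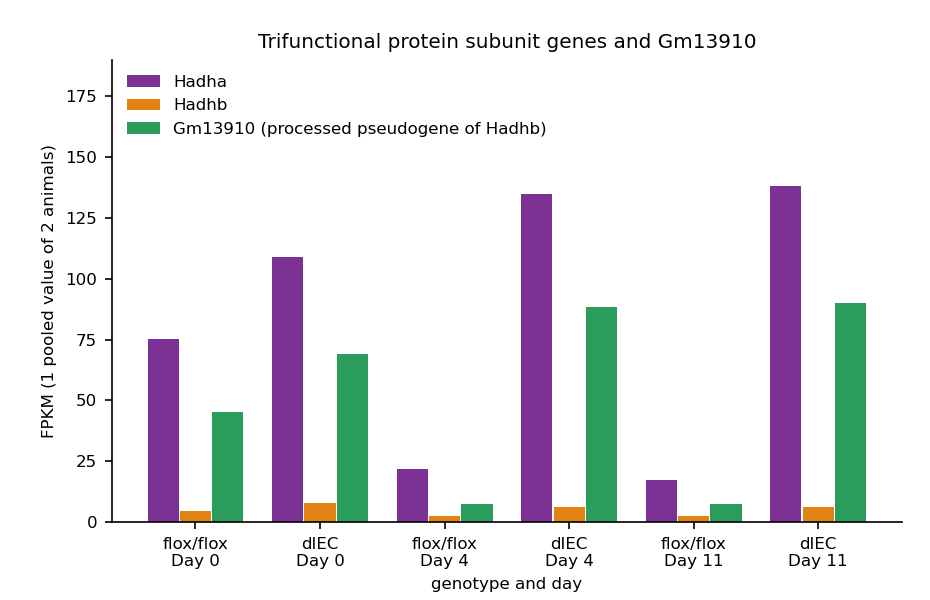
FPKM (y axis, from 0) of Hadha, Hadhb and Gm13910 in the 6 groups (x axis), each bar 1 pooled value of 2 animals. The Gm13910 bars, at 88.3 FPKM in Tfeb dIEC and 7.31 FPKM in Tfeb flox/flox on Day 4, stand above those of Hadhb in every group.

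The auxiliary enzymes for unsaturated chains stayed within 2-fold between genotypes on each day. Eci1, an isomerase that moves double bonds into place, was at 36.0 and 22.9 FPKM on Day 0 and 33.3 and 20.9 FPKM on Day 4, in Tfeb flox/flox and Tfeb dIEC in turn. Eci2, a second isomerase, was between 12.0 and 21.3 FPKM in all groups. Decr1, the mitochondrial dienoyl-CoA reductase, was at 6.43 and 10.2 FPKM on Day 0 and 4.60 and 9.16 FPKM on Day 4. Eci1 had negative differences (-0.63, -0.65 and -0.62) and Decr1 positive ones (0.59, 0.86 and 0.82) on the 3 days.

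Of the 6 peroxisomal members, 3 were at least 2-fold higher in Tfeb dIEC on Days 4 and 11, against 25.6% and 26.1% of all genes, and none on Day 0. With the trend over transcript length subtracted, 1 of the 3, Hsd17b4, stayed past 2-fold on these days, against 20.1% and 20.3% of all genes higher after that step. Hsd17b4, a bifunctional enzyme that hydrates and dehydrogenates very long and branched chains, was at 12.9 FPKM in Tfeb flox/flox and 22.7 FPKM in Tfeb dIEC on Day 0, 3.07 and 14.2 FPKM on Day 4, and 3.05 and 15.0 FPKM on Day 11. Ehhadh, the other bifunctional enzyme, was at 9.82 and 10.0 FPKM, 1.74 and 6.76 FPKM, and 1.63 and 6.71 FPKM. Decr2, the peroxisomal dienoyl-CoA reductase, was at 12.0 and 14.1 FPKM, 4.99 and 13.0 FPKM, and 5.35 and 13.8 FPKM. In all 3 the Tfeb flox/flox value was the low one on Days 4 and 11, and the Day 4 differences were 1.90, 1.50 and 1.23. The thiolase Acaa1a was between 25.7 and 37.4 FPKM in all groups, differing by 0.08 on Day 4. Acaa1b, its near copy with which it shares sequence, was between 2.68 and 7.96 FPKM and differed by 0.55. Acox3, an oxidase for branched chains, was at 2.20 and 3.67 FPKM on Day 0 and near or below 1 FPKM in both genotypes later.

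Among the ketone body and acetoacetyl-CoA enzymes, 2 of 4 were at least 2-fold higher in Tfeb dIEC on Days 4 and 11, against 25.6% and 26.1% of all genes, and 0 with the trend over transcript length subtracted, against 20.1% and 20.3%. Acat1, the mitochondrial acetoacetyl-CoA thiolase, was at 20.2 FPKM in Tfeb flox/flox and 24.8 FPKM in Tfeb dIEC on Day 0, 6.75 and 20.7 FPKM on Day 4, and 7.42 and 21.5 FPKM on Day 11. Oxct1, the transferase that activates acetoacetate for its breakdown, was at 55.8 and 68.2 FPKM, 15.4 and 38.6 FPKM, and 15.9 and 38.2 FPKM. The Day 4 differences were 1.49 for Acat1 and 1.27 for Oxct1, and the Tfeb dIEC value of Oxct1 was itself lower on Day 4 than on Day 0, with a difference of -0.80. Bdh1, which interconverts acetoacetate and hydroxybutyrate, was at 73.5 and 62.5 FPKM on Day 0 and 39.0 and 69.5 FPKM on Day 4, a difference of 0.82 that was within 2-fold. Acat2, the cytosolic thiolase, was between 3.18 and 6.05 FPKM in all groups. Of its 50-base sequences, 39.1% are shared with Acat3, which was listed at 0 in every group. Tcp1, at 44.5 to 81.9 FPKM, holds 11.2% of them, which limits the values of Acat2.

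The thioesterases, which split acyl-CoA back into fatty acid and coenzyme A, were hardly detected. Acot1 was at 1.23 and 1.98 FPKM on Day 0 and between 0.422 and 0.744 FPKM later. Acot2 was listed at 0 in Tfeb flox/flox on Day 0 and was between 0.187 and 0.526 FPKM elsewhere.

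Day 4 was then set beside Day 0 within each genotype. In Tfeb flox/flox, 18 of 36 members were at least 2-fold lower on Day 4 than on Day 0, against 25.7% of 9617 genes, and 1, Etfb, was at least 2-fold higher, against 17.5%. The median was -1.01 for the members and -0.20 for all genes. In Tfeb dIEC, 2 members (Acadsb and Acox3) were at least 2-fold lower, against 15.6% of genes, and none was higher, against 9.26%. There the median was -0.07, beside -0.20 for all genes. With the length trend subtracted, 12 members were at least 2-fold lower in Tfeb flox/flox, against 17.7% of all genes, and the median was -0.57, while the Tfeb dIEC median turned positive (0.15), as it did after centring on all genes (0.13) and after division by the sum (0.16). The 2 days come from tables scaled separately, and no test of this contrast was possible.

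The 18 members lower in Tfeb flox/flox on Day 4 were Acaa1b, Acad8, Acad9, Acadm, Acads, Acadsb, Acat1, Acsl5, Acsm3, Cpt2, Decr2, Ehhadh, Etfa, Etfdh, Hadh, Hadha, Hsd17b4 and Oxct1. This contrast shares the Tfeb flox/flox Day 4 value with the genotype difference of that day. Acadl, Acsl1, Cpt1a and Hadhb, which were at least 2-fold higher in Tfeb dIEC on Day 4 but are not in this list, had Day 4 minus Day 0 values in Tfeb flox/flox of 0.20, -0.46, -0.72 and -0.69. The largest decreases in Tfeb flox/flox were those of Etfdh (-2.85), Acadsb (-2.73), Hadh (-2.49) and Acadm (-2.01). In Tfeb dIEC the same values were 0.29, -2.36, -0.35 and -0.04, so that Acadsb was low on Day 4 in both genotypes and the other 3 in Tfeb flox/flox only.

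**Figure D4:**
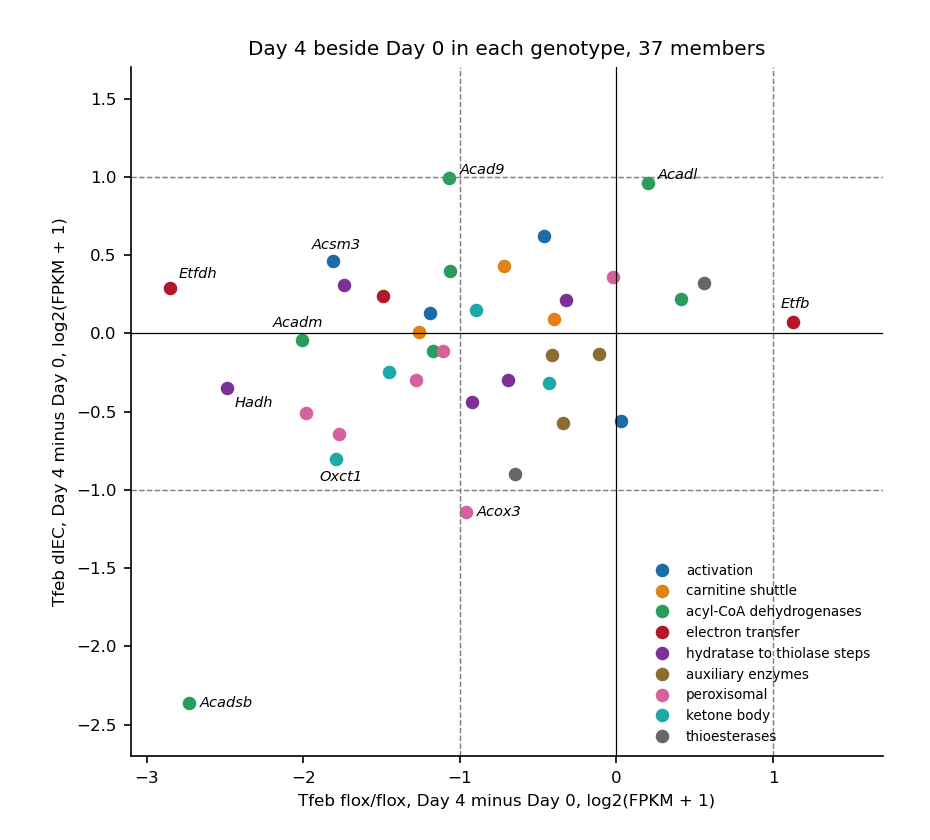
Day 4 minus Day 0 on the log2(FPKM + 1) scale in Tfeb flox/flox (x axis) and in Tfeb dIEC (y axis) for the 37 members, coloured by role, with dashed lines at 2-fold. The points spread from -2.85 to 1.13 along the x axis, and 34 of the 36 members with at least 1 FPKM lie between the horizontal dashed lines.

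Differences between genotypes followed transcript length across all genes, and the members were somewhat longer than other genes, with a median of 2094 nt for those with at least 1 FPKM on Day 4 beside 1894 nt for all such genes. On Day 4 the median difference was -1.83 in the shortest of 10 length classes (204 to 501 nt) and 0.65 at 2843 to 3492 nt, the highest class median, and 0.37 in the longest class, while the members ranged from 893 nt (Etfb) to 4317 nt (Cpt1a). Members were therefore also set beside genes of their own length. Among 21 members of 2000 nt and over, 14 were at least 2-fold higher on Day 4, against 34.2% of genes of that length, and their median was 1.27 beside 0.58. Among 12 members from 1200 to under 2000 nt, 4 were at least 2-fold higher, against 22.7%, with a median of 0.74 beside 0.14. Of the 2 members under 1200 nt, 1 was at least 2-fold lower and none higher, against 54.0% lower and 14.8% higher, and their median was -1.29 beside -1.13.

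After the running median over length was subtracted, 10 members stayed at least 2-fold higher on Day 4, against 20.1% of all genes, and 4 were at least 2-fold lower, against 20.7%. The median over members was then 0.59, and that of Day 0 was -0.05. The 10 were Acadm, Acads, Acsl5, Acsm3, Cpt1a, Etfa, Etfdh, Hadh, Hadha and Hsd17b4, led by Acsm3 (2.91), Hadh (2.70) and Etfdh (2.69). The lower members were Etfb (-1.28), Acsl3 (-1.35), Acadsb (-1.03) and Crat (-1), so the number of members past 2-fold depended on this step. Acsm3, Etfdh and Hadh had the 3 largest differences with and without it. Subtracting the trend left no member at least 2-fold higher on Day 0.

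**Figure D5:**
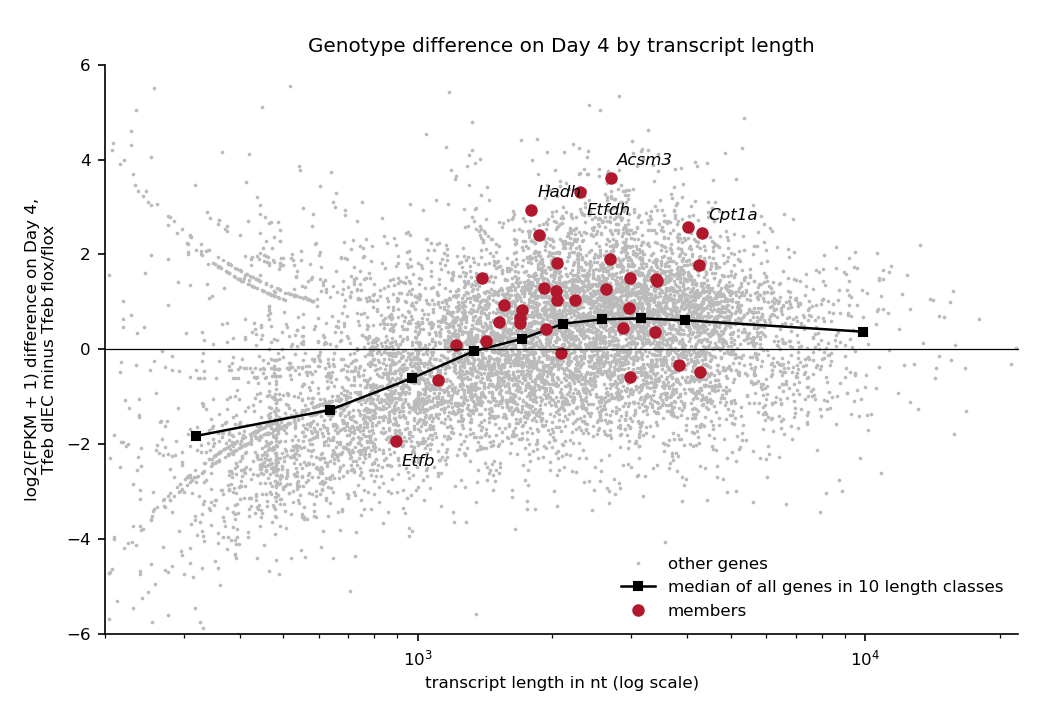
Day 4 difference on the log2(FPKM + 1) scale, Tfeb dIEC minus Tfeb flox/flox (y axis), against transcript length in nt on a log axis, with other genes in grey, members in red and the median of 10 length classes as black squares. The axis ends at 6 in either direction, beyond which lie 51 other genes. The median climbs from -1.83 in the shortest class to 0.65 in class 8 and is 0.61 and 0.37 in the last ones, and most members lie above it.

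Some cell type markers differed between the same groups. On Day 4, 25.6% of all genes were at least 2-fold higher and 26.1% lower. With the length trend subtracted, the shares of all genes were 20.1% higher and 20.7% lower. Of 9 epithelial markers, 5 were within 2-fold, 3 higher and 1 lower, with a median of 0.56, or 0.17 with the length trend subtracted. The 7 goblet cell markers summed to 40313 FPKM in Tfeb flox/flox and 24493 FPKM in Tfeb dIEC on Day 0, and to 149867 and 22801 FPKM on Day 4, when 5 were at least 2-fold lower in Tfeb dIEC and 2 at least 2-fold higher. The goblet markers had a median length of 711 nt, and with the length trend subtracted 3 were lower and 1 higher, and their median went from -2.23 to -0.99. Of 8 surface colonocyte markers, 5 were at least 2-fold higher and 1 lower on Day 4, although their sum was 58925 FPKM in Tfeb flox/flox and 37952 FPKM in Tfeb dIEC. With the length trend subtracted, 4 were higher and 0 lower. Of 5 enteroendocrine markers, 1 (Pyy, at 209 and 17.8 FPKM) was at least 2-fold lower on Day 4 and 4 were within 2-fold, with a median of 0.01. With the length trend subtracted, 1 was lower and 1 higher (Gcg, 1.46), with a median of -0.22. Both crypt base and cycling markers with at least 1 FPKM, of 7, were within 2-fold. The part of cell composition in the member differences was not tested, and in bulk samples fewer cells of a type and less RNA per cell cannot be told apart.

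All FPKM values of Day 4 added up to 1464716 for Tfeb flox/flox but 820344 for Tfeb dIEC, whereas the totals of Day 0 were 975315 and 973877. Dividing each group by its total moved the Day 4 median of all genes from 0.06 to 0.75 and that of the members from 1.03 to 1.72. Under that scaling 26 of 35 members were at least 2-fold higher and 1 lower, against 42.4% and 15.4% of all genes.

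The other genes of the pathway, 69 that are no members, were read the same way. On Day 4, 50 had at least 1 FPKM, of which 20 were at least 2-fold higher in Tfeb dIEC and 4 lower, against 25.6% and 26.1% of all genes, with a median of 0.61. With the length trend subtracted, 15 were higher and 4 lower, against 20.1% and 20.7% of all genes after the same step, and the median was 0.36. The corresponding counts without that step were 11 higher and 5 lower of 50 on Day 0, against 13.5% and 16.1%, and 20 higher and 4 lower of 50 on Day 11, against 26.1% and 25.7%. In Tfeb flox/flox, 18 of 49 were at least 2-fold lower on Day 4 than on Day 0, against 25.7% of all genes, and in Tfeb dIEC 3 of 51, against 15.6%.

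Among the named genes of this wider list, Slc16a1 and Hmgcs1 had the largest Day 4 differences reported here. Slc16a1, a transporter of lactate, butyrate and ketone bodies, was at 1.27 FPKM in Tfeb flox/flox and 33.6 FPKM in Tfeb dIEC on Day 4 (3.93), and at 7.85 and 26.5 FPKM on Day 0 (1.64). Hmgcs1, the cytosolic synthase of the cholesterol pathway, was at 4.74 and 84.3 FPKM on Day 4 (3.89). It was already higher in Tfeb dIEC on Day 0, at 12.1 and 62.4 FPKM (2.27, and 1.91 with the length trend subtracted). Slc25a20, the carnitine carrier of the inner mitochondrial membrane, was at 12.1 and 49.9 FPKM on Day 4 (1.96), and its Tfeb dIEC value was higher on Day 4 than on Day 0 (20.3 FPKM), with a difference of 1.26. Hsd17b10, a mitochondrial hydroxyacyl-CoA dehydrogenase, differed by -0.20 on Day 4, and by 0.44 with the length trend subtracted.

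The largest differences in the other direction were those of Dbi, Acot13 and Mcee. Dbi, an acyl-CoA binding protein, was at 2173 FPKM in Tfeb flox/flox and 565 FPKM in Tfeb dIEC on Day 4 (-1.94). Acot13, a thioesterase, was at 43.7 and 12.2 FPKM (-1.76), and Mcee, an epimerase of propionyl-CoA breakdown, at 42.7 and 13.2 FPKM (-1.62). With the length trend subtracted, the Day 4 values were -0.39, -0.56 and -0.14, all within 2-fold. On Day 0 the differences of Dbi, Acot13 and Mcee were -1.29, -1.14 and -0.15. With the length trend subtracted, those of Day 0 were -0.47, -0.48 and 0.72.

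Of 3 named regulators, Hnf4a had the highest level. Ppara, the fatty acid-sensing nuclear receptor, was at 5.72 FPKM in Tfeb flox/flox and 6.18 FPKM in Tfeb dIEC on Day 0 and 0.176 and 3.23 FPKM on Day 4, a difference of 1.85. Ppargc1a, a coactivator of mitochondrial genes, was between 0.648 and 1.99 FPKM and differed by 0.54 on Day 4. Hnf4a, an epithelial nuclear receptor, was at 24.4 and 46.5 FPKM on Day 0 and 20 and 47.1 FPKM on Day 4, with differences of 0.91 and 1.20. With the length trend subtracted the Day 4 difference of Hnf4a was 0.69, within 2-fold, that of Ppara 1.24 and that of Ppargc1a -0.01. Other receptors and coactivators of the list, chosen here after their values were seen, went both ways on Day 4: Pparg differed by 2.25 and Esrra by 0.20, and Ppard by -1.06, Rxra by -0.30 and Ppargc1b by -0.27. With the length trend subtracted these were 1.87, -0.35, -1.15, -1 and -0.87 in the same order, so Esrra changed sign.

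Promoter sequences from RefSeq (GRCm38.p6, 250 bases before and 50 after a start) were available for 31 of the 37 members. On either strand, none of the 31 held CACGTG, the E-box core, which 8.09% of 27025 genes hold, or TCACGTGA, the core of the element bound by TFEB and a longer form of the same letters (1.12%). The absence says only that these letters are not in these windows.

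Other members also share sequence with neighbours or copies, which limits their values. At least 90% of 50-base sequences were unique to the gene in 24 members. Among the rest, 34.0% of those of Acsm3 occur in Eri2, which overlaps it on the other strand, and 26.9% of those of Acadvl occur in Dvl2. Eri2 was between 0.223 and 1.1 FPKM and differed by -0.78 on Day 4, opposite to Acsm3. Acad9 overlaps Gm43079 on the same strand, a transcript of at most 1.45 FPKM that was higher in Tfeb flox/flox on Day 0 and in Tfeb dIEC on Day 4, as Acad9 was. Using only members with mostly unique sequence, 14 of 24 were at least 2-fold higher on Day 4 and none lower, against 25.6% and 26.1% of all genes.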

How the data were processed

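RNA-seq of colonic epithelial cells was used for 6 groups of 2 animals (12 samples), with genotype and day taken from the sample labels. Per the labels and the study's methods, full-length cDNA was made by a variation of SmartSeq2, and paired-end reads from a MiSeq were aligned to mm10 by Tophat2 (with Bowtie), after which Cuffdiff compared the genotypes. The submitters' processing notes name TopHat2 2.0.14 and Cuffdiff 2.1.1. The annotation release and the strand setting are not given in the sources used here. The 3 deposited tables, 1 per day, hold for 47632 genes 1 FPKM value per genotype, which the authors' Cuffdiff run estimated from both animals and scaled within that day. The tables also hold the authors' fold changes, test statistics, p-values and q-values, which were not used.

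Tables were joined by gene identifier. A gene entered a comparison with at least 1 FPKM in either group. Differences were computed as log2(FPKM + 1), and 2-fold was the limit for a count. Without values per animal there was no test, and the depth behind each value is unknown. Transcript length is the median over basic transcripts of GENCODE M21, whose assembly is that of mm10; 47218 of 47632 genes and all 37 members matched. The length trend was a running median over 401 genes. Shared sequence is the share of 50-base sequences of a gene's transcripts found in another gene. Calculations were tested on simulated data and used scipy 1.17.1 and pandas 2.3.3 in Python 3.11.15, and figures matplotlib 3.10.9.

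All members are accounted for. Those at least 2-fold different between genotypes on any day are given with 6 values. Of 69 other pathway genes, Slc25a20, Hsd17b10, Slc16a1, Ppara, Ppargc1a and Hnf4a are named, with the 3 of largest Day 4 difference in each direction. The results of some genes that fall under this rule are not reported here. Pparg, Esrra, Ppard, Rxra and Ppargc1b of the same list, and genes that share sequence with members, were chosen after their values were seen. The members, pathway genes and marker lists (epithelial, surface colonocyte, crypt base and cycling, goblet, enteroendocrine, immune, stromal and vascular, small-intestinal enterocyte) were chosen with earlier results of these data known. Alternatives were other pseudocounts, filters, fold limits, scalings, a length correction and protein-coding genes only.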

Additional observations from a re-analysis of the deposited data

Results flagged for a closer look

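Acad9 differed between days in the direction of its genotype difference. It was lower in Tfeb dIEC than in Tfeb flox/flox on Day 0 (3.43 against 8.01 FPKM) and higher on Day 4 (7.80 against 3.29 FPKM), a change of 2.06 in the difference on the log2(FPKM + 1) scale. With 1 pooled value per genotype and day, this change was not tested. The differences of -1.02 and 1.04 lie close to the 2-fold line: with the length trend subtracted they were -1.23 and 0.47, and with a pseudocount of 5 FPKM -0.62 and 0.63, both within 2-fold. Of the 50-base sequences of Acad9, 85.4% occur in no other gene.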

How the results depend on the processing

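No paired analysis was possible because each genotype has 1 pooled value per day, and for the same reason no animal could be left out. Dividing the values of a group by their sum moved the median to 1.72 on Day 4, 1.95 on Day 11 and -1.51 for Tfeb flox/flox Day 4 beside Day 0. It also gave 1 member lower on Day 11 (15.1% of all genes), and, beside Day 0, 0 higher in Tfeb flox/flox on Day 4 (9.89%) and 2 higher in Tfeb dIEC on Day 4 (12.7%). The share of all genes under the same step stands in brackets here and below. Subtracting the length trend gave 3 lower and 0 higher on Day 0 (11.5% each), 4 and 10 on Day 4 (20.7% and 20.1%), 11 higher on Day 11 (20.3%), 0 higher in Tfeb flox/flox (17.8%), and 1 lower and 2 higher in Tfeb dIEC (10.6% and 11.9%). With a pseudocount of 5 FPKM the median was 0.65 on Day 4 and 0.79 on Day 11, with 13 (9.33%) and 14 (9.28%) higher, and 12 were lower in Tfeb flox/flox on Day 4 beside Day 0 (7.14%). With it 0 were lower on Day 0 (6.24%), 1 on Day 11 (13.6%) and 1 in Tfeb dIEC (2.65%), and with 0.1 FPKM 1 was higher in Tfeb dIEC (12.5%). At 10 FPKM or more, 0 were lower on Day 0 (20.9%) and in Tfeb dIEC (10.2%). Centring on the median of all genes gave 1 lower and 2 higher in Tfeb dIEC (10.5% and 11.9%). At 1.5-fold, 7 were lower and 7 higher on Day 0 (25.6% and 27.3% of all genes), 2 lower on Day 4 (34.3%), and 5 lower and 3 higher in Tfeb dIEC (29.3% and 16.8%). At 4-fold, 0 were lower or higher on Day 0 (3.35% and 2.09%), 0 and 6 on Day 4 (10.3% and 7.36%), 0 and 7 on Day 11 (10.2% and 7.46%), 4 and 0 in Tfeb flox/flox (5.53% and 4.41%), and 1 lower in Tfeb dIEC (2.31%). Chosen after seeing the data, members with mostly unique sequence gave 0 lower and 1 higher on Day 0 (16.1% and 13.5%), 0 lower on Day 4 (26.1%), 1 lower on Day 11 (25.7%) and 0 higher in Tfeb flox/flox (17.5%), and leaving out Etfb gave 0 lower on Day 4, 1 on Day 11 and 0 higher in Tfeb flox/flox, with the same shares. Cause was not tested. Of the single-gene differences, 22 of 144 crossed the 2-fold line under division by the sum, 35 of 146 under the length trend, and none past 2-fold changed sign under the 5 alternatives run for them.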
